A study of Rattus norvegicus with 36 samples.

Results

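In rat lung slices treated with TGFb, 54 genes stood lower with each of the kinase inhibitors Nint and Sora than with TGFb alone and stayed within set limits for the TGFb and Pirf differences. The genes were chosen from the authors' log2 CPM table (CPM is reads counted relative to library size, scaled between libraries), using the mean of the 6 libraries of each group. A gene was kept when its highest group mean was 1 or more, when its mean was lower by 0.5 or more with Nint and with Sora than with TGFb alone, and when it differed by less than 1 between TGFb alone and untreated slices and by less than 0.8 between Pirf and TGFb alone. These limits kept 54 of the 14984 genes in the table, which is labelled expressed protein-coding. Of the 14984 genes, 13053 reached the level limit. The fall with both drugs and the limited TGFb and Pirf differences are therefore how the genes were picked, and their values are given as a description with no test.

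Precision-cut lung slices are thin sections of living lung that are cultured with the cell types of the tissue in place. The groups were TGFb with Nint, TGFb with Sora, TGFb with Pirf, TGFb alone and untreated slices, all at the labelled time 72, and untreated slices at the labelled time 0, with 6 libraries each and 36 in all. Nint, Sora and Pirf are read as nintedanib, sorafenib and pirfenidone from knowledge of the study. The labels give no unit of time, dose, strain, sex or age, and do not say whether replicates are different animals. The p-values therefore reflect the spread among these libraries alone, and that spread may be technical.

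TGFb is a growth factor that drives fibroblasts to lay down matrix and is a standard trigger of fibrosis in lung models. Nintedanib and sorafenib both block several kinases at once. They share receptors for vascular endothelial growth factor and platelet-derived growth factor, which act on blood vessel cells and on pericytes and fibroblasts. Nintedanib also blocks fibroblast growth factor receptors, and sorafenib also blocks RAF kinases, which pass signals from such receptors to the ERK pathway. Pirfenidone is an anti-fibrotic drug that is not known as a kinase inhibitor of this kind. In slices, fewer cells of a type and less RNA per cell cannot be told apart.

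The deposited tables identify genes by Ensembl ID and do not pair the IDs with names, and 0 entries of the rat RefSeq table used here carry an Ensembl gene ID. No member is therefore given a name or function, no sequence is shown, and marker genes of lung cell types were not checked. IDs are printed for at most 2 members that rose and 2 that fell in a comparison, and other members are described by their values. Total counts per library lay between 19787248 and 32933012 in the drug groups, between 21288889 and 30499057 with TGFb alone, between 18971560 and 26361547 in untreated slices at 72 and between 15886958 and 23255558 at time 0.

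Among the 54 members the Nint difference ran from -1.76 to -0.50 with a median of -0.78 log2 CPM, and the Sora difference from -1.54 to -0.50 with a median of -0.65. Over all 13053 genes at this level the medians were 0.01 and 0.01. The Nint difference was -1 or lower in 15 members and the Sora difference in 12, but both were in only 4. Many members lay close to a limit, and 25 had at least one of their differences between -0.6 and -0.5. Just inside the Nint limit stood members at -0.501 and -0.506, and just outside it, with every other limit met, genes at -0.492 and -0.490. Just inside the Sora limit the values were -0.501 and -0.503, and just outside it -0.494 and -0.488.

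**Figure D1:**
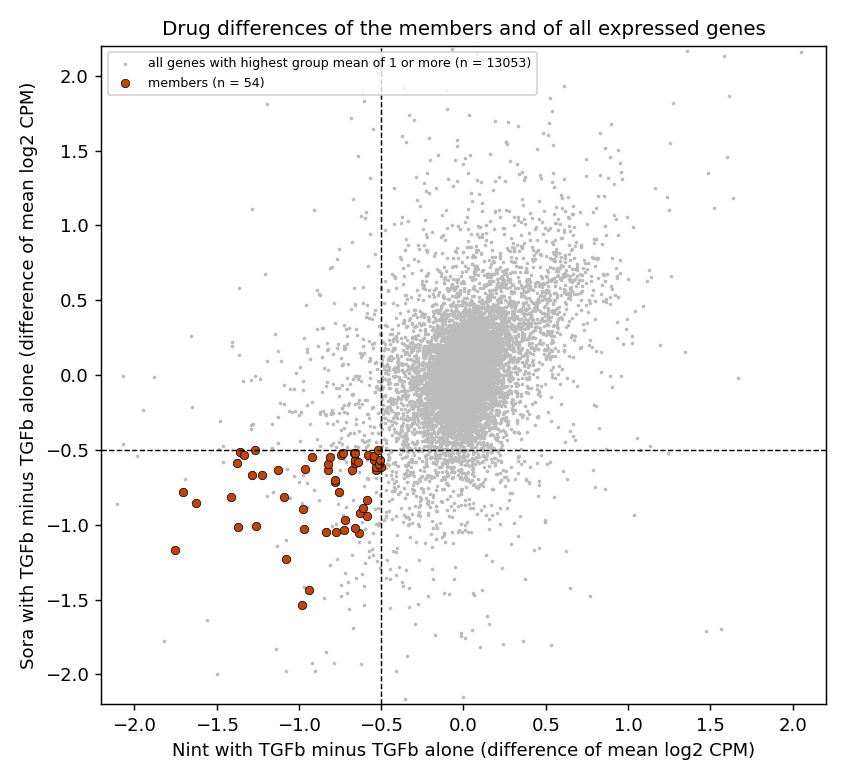
Difference of mean log2 CPM from TGFb alone, with Nint on the x axis and with Sora on the y axis, for all 13053 genes at the level limit (grey) and the 54 members (orange), with dashed lines at -0.5. Members fill only part of the lower left corner, since other genes there failed the TGFb or Pirf limit, and 44 genes lie outside the axes.

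A larger group of 151 genes met the level limit and both kinase inhibitor limits. Of those that are no members, 27 failed only the TGFb limit, 29 only the Pirf limit and 41 both. Among those that failed the TGFb limit, 65 were higher with TGFb by 1 or more and 3 lower. The members are thus the 54 genes of this corner with a TGFb difference of less than 1 and a Pirf difference of less than 0.8 in either direction.

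The members covered a wide range of levels. The highest group mean had a median of 4.07 log2 CPM, against 5.05 over all genes at the limit, and ran from 1.01 to 9.84. It was under 2 in 12 members, between 2 and 5 in 22, and 5 or more in 20. The highest of the 6 group means was at time 0 in 27 members, in untreated slices at 72 in 11, with TGFb alone in 8 and with Pirf in 8. In 6 members the level limit was reached only at time 0 and in 1 only in untreated slices at 72, and in 9 the mean with TGFb alone, from which both drug differences are taken, was under 1.

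The most abundant member had means of 7.84 with Nint, 8.06 with Sora, 8.58 with TGFb alone, 8.75 in untreated slices at 72 and 9.84 at time 0. The next had means of 8.80 with Nint, 8.68 with Sora, 9.30 with TGFb alone, 9.62 in untreated slices at 72 and 7.37 at time 0. In both, all 6 Nint and all 6 Sora libraries lay below all 6 with TGFb alone. The member next in level, ENSRNOG00000017676, had a highest mean of 8.81 and showed this separation with Nint but not with Sora. The one after it showed the separation with both drugs. Its means were 7.24 with Nint, 7.02 with Sora, 8.07 with TGFb alone, 8.11 in untreated slices at 72 and 8.73 at time 0. The last member with a level of 8 or more showed the separation with Sora only.

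Seen library by library, the mean over the 54 members relative to TGFb alone lay between -0.99 and -0.80 log2 in the 6 Nint libraries and between -1.01 and -0.52 in the 6 Sora libraries. It lay between -0.21 and -0.08 in the Pirf libraries, between -0.21 and 0.21 in the TGFb-alone libraries, between -0.16 and 0.15 in untreated slices at 72 and between -0.04 and 0.29 at time 0. Sora replicate 4 was the least lowered drug library, with 47 members below their TGFb-alone mean, where each other Nint or Sora library had 51 to 53. The direction of the first 2 ranges follows from the choice of genes.

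**Figure D2:**
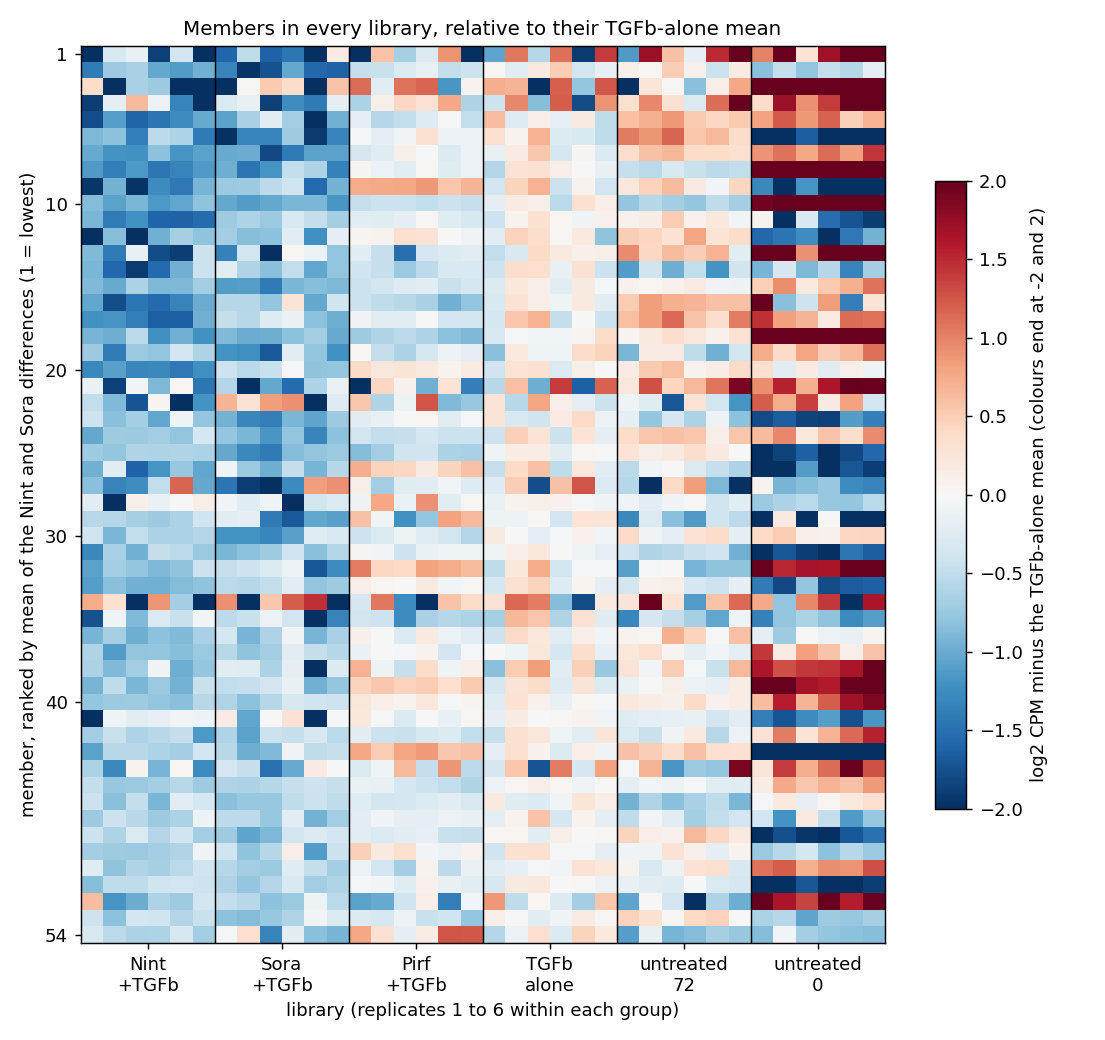
Log2 CPM minus the TGFb-alone mean for the 54 members (rows, ranked by the mean of the Nint and Sora differences, lowest at the top) in the 36 libraries (columns, by group). Nint and Sora columns are mostly blue, Pirf and untreated columns at 72 mostly pale, and the time-0 columns hold both strong red and strong blue rows, while some rows vary widely within a group.

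The members differed in how cleanly the groups parted. All 6 Nint libraries lay below all 6 TGFb-alone libraries in 28 members, a separation seen in 1.78% of the 13053 genes. All 6 Sora libraries did so in 16 members, against 2.94% of all genes. The rule used both contrasts, so nothing is read from these counts. Both separations held in 13 members, against 0.498% of all genes, and neither in 23.

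The 13 members with both separations had levels from 1.71 to 9.84 with a median of 6.21 log2 CPM. Their median differences were -0.78 with Nint, -0.89 with Sora, -0.33 with Pirf and -0.09 for TGFb alone against untreated slices at 72. In the edgeR quasi-likelihood fit over 15644 genes, all 54 members passed the filter on low counts. Those 15644 were drawn from all 32883 counted genes, while members could only come from the 14984 labelled expressed protein-coding. Shares of all genes called in this fit, here and below, thus rest on a wider set than the members came from. Called lower with Nint, at an adjusted p under 0.05, were 36 members and higher 0, where 3.09% of all genes were called, 2.21% lower and 0.882% higher. Called lower with Sora were 36 members and higher 0, where 15.4% of all genes were called, 8.37% lower and 7.01% higher. Both calls held in 34 members, against 0.889% of all genes (139), and neither in 16. Again these contrasts chose the genes, so nothing is read from these counts. In that fit 2 members had a Sora log2 fold change above 0, the highest being 0.21, so their sign differed between the mean of log2 CPM and the fitted counts. In 1 of them Sora replicate 5 stood at -4.37, and the Sora median was 2.35 against 1.84 with TGFb alone. In the other, Sora replicates 2 and 6 stood at -2.19 and -0.78 and the rest between 3.03 and 3.95. A further member had Nint replicate 2 at -2.10 and Sora replicate 4 at -1.39. Its medians were 2.21 with Nint and 2.02 with Sora, against 2.30 with TGFb alone.

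The set also depended on single libraries. With each library left out in turn, between 42 and 71 genes met the limits, and 22 of the 54 members met them every time. The fewest came without TGFb-alone replicate 3, when 34 of the 54 remained among 42, and the most without TGFb-alone replicate 4, when 50 remained among 71. The 22 that always stayed had median differences of -0.97 with Nint and -0.95 with Sora, and the other 32 had -0.67 and -0.58.

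The members spread more between replicates than other genes. The median SD over members was 0.27 log2 CPM in the Nint group, 0.33 in the Sora group, 0.17 in the Pirf group and 0.32 with TGFb alone, against 0.12, 0.17, 0.11 and 0.17 over all 13053 genes. Their lower median level, given above, goes with this, and its part was not tested.

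The lowest mean of both drug differences belonged to ENSRNOG00000047671, a gene near the detection limit. Its lowest, median and highest values were -6.60, -2.07 and -1.10 log2 CPM with Nint and -2.97, -2.45 and -0.77 with Sora, against -2.86, -0.70 and 0.45 with TGFb alone. These groups overlapped, and the counts behind them were 36.3 reads over the 6 Nint libraries, 42.5 over the 6 Sora libraries and 100 over the 6 with TGFb alone. All of its reads were in values that are not whole, which is how RSEM writes reads shared between similar genes. Its values were -3.40, -1.42 and -0.05 with Pirf, -2.07, 0.10 and 1.66 in untreated slices at 72, and -0.66, 0.95 and 2.41 at time 0.

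The second lowest was ENSRNOG00000010688, whose counts were whole and lay between 34 and 186 in every library. Its lowest, median and highest values were 0.99, 1.40 and 1.74 log2 CPM with Nint and 0.42, 0.80 and 1.36 with Sora, against 2.02, 2.33 and 2.89 with TGFb alone. Every Nint and every Sora library lay below every TGFb-alone library. The values were 1.91, 1.96 and 2.24 with Pirf, 1.95, 2.48 and 2.87 in untreated slices at 72, and 1.56, 1.86 and 2.19 at time 0. All Nint and Sora libraries thus also lay below all Pirf libraries and all untreated ones at 72, and the Sora libraries below all at time 0.

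The TGFb and Pirf differences of the members, which the rule limits, lay on both sides of 0. The TGFb difference was above 0 in 26 members and below 0 in 28, with a median of -0.03. It was within 0.5 of 0 in 35. The Pirf difference was below 0 in 37 members and above 0 in 17, with a median of -0.15, and it was within 0.5 of 0 in 41. In the edgeR fit TGFb was called for 10 members (7 higher and 3 lower), where 26.4% of all genes were called (14% higher and 12.4% lower), and Pirf for 19 (5 higher and 14 lower), where 51.5% were (25.1% higher and 26.4% lower). The rule limits both differences, so nothing is read from these counts. Without scaling factors, on total counts alone, the Pirf calls were 5 higher and 4 lower and the TGFb calls 7 higher and 7 lower, while the median log2 fold change over all genes shifted to 0.15 for Pirf and 0.11 for Sora.

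The levels with the kinase inhibitors were below those of untreated slices in most members. The mean with TGFb and Nint was below that of untreated slices at 72 in 48 members, with a median difference of -0.79. The mean with TGFb and Sora was below it in 50, with a median of -0.64. All 6 Nint libraries lay below all 6 untreated ones at 72 in 28 members (9.32% of all genes), and all 6 Sora libraries in 24 (4.42%). These differences are sums of limited ones and so are largely set by the rule.

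Sora was compared with Nint directly, both with TGFb and at doses the labels do not give. The rule sets no limit on this difference but uses the same libraries and asks for a fall with each drug. Of the 54 members, 4 were called in edgeR's quasi-likelihood test, 3 higher and 1 lower with Sora. That is 7.41% of the members against 11% of all genes, of which 6.43% were higher and 4.56% lower. The median log2 fold change was 0.08 over members and 0.02 over all genes, and the members ran from -0.54 to 1.20. The median absolute log2 fold change was 0.22 over members and 0.15 over all genes, and the median SE was 0.19 and 0.12. The share called did not exceed that of all genes, but the larger SE makes a call harder to reach in the members. For the members not called the test does not show that the drugs acted alike.

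ENSRNOG00000018952 was higher with Sora than with Nint. Its lowest, median and highest values were 3.36, 3.82 and 4.20 log2 CPM with Sora, against 2.70, 3.04 and 3.38 with Nint (log2 fold change 0.81, SE 0.20, edgeR adjusted p = 0.00891). The lowest Sora library lay just below the highest Nint library. With TGFb alone the values were 3.86, 4.16 and 5.02, so that Nint libraries lay below all of them and Sora libraries overlapped them. In untreated slices they were 4.68, 5.05 and 5.47 at 72 and 4.50, 5.28 and 5.80 at time 0.

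ENSRNOG00000022910 was also higher with Sora. It had 4.98, 5.29 and 5.75 log2 CPM with Sora, against 4.36, 4.50 and 4.70 with Nint, with no overlap between the groups (log2 fold change 0.79, SE 0.12, edgeR adjusted p = 0.000131). With TGFb alone it had 5.39, 5.84 and 6.09, and with Pirf it lay between 5.85 and 6.17. Its Sora difference from TGFb alone, -0.503, lay just inside the limit.

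ENSRNOG00000010688 was the one member called lower with Sora than with Nint (log2 fold change -0.54, SE 0.16, edgeR adjusted p = 0.0274), and its lowest Nint library lay below its highest Sora library. The call held in 12 of 19 settings, and that of the remaining member, higher with Sora, in 9 of 19. The calls of ENSRNOG00000018952 and ENSRNOG00000022910 held in all 19. Without Nint replicate 2 or 3, or Sora replicate 2 or 3, only 2 members were called, and without Sora replicate 5 there were 9.

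**Figure D3:**
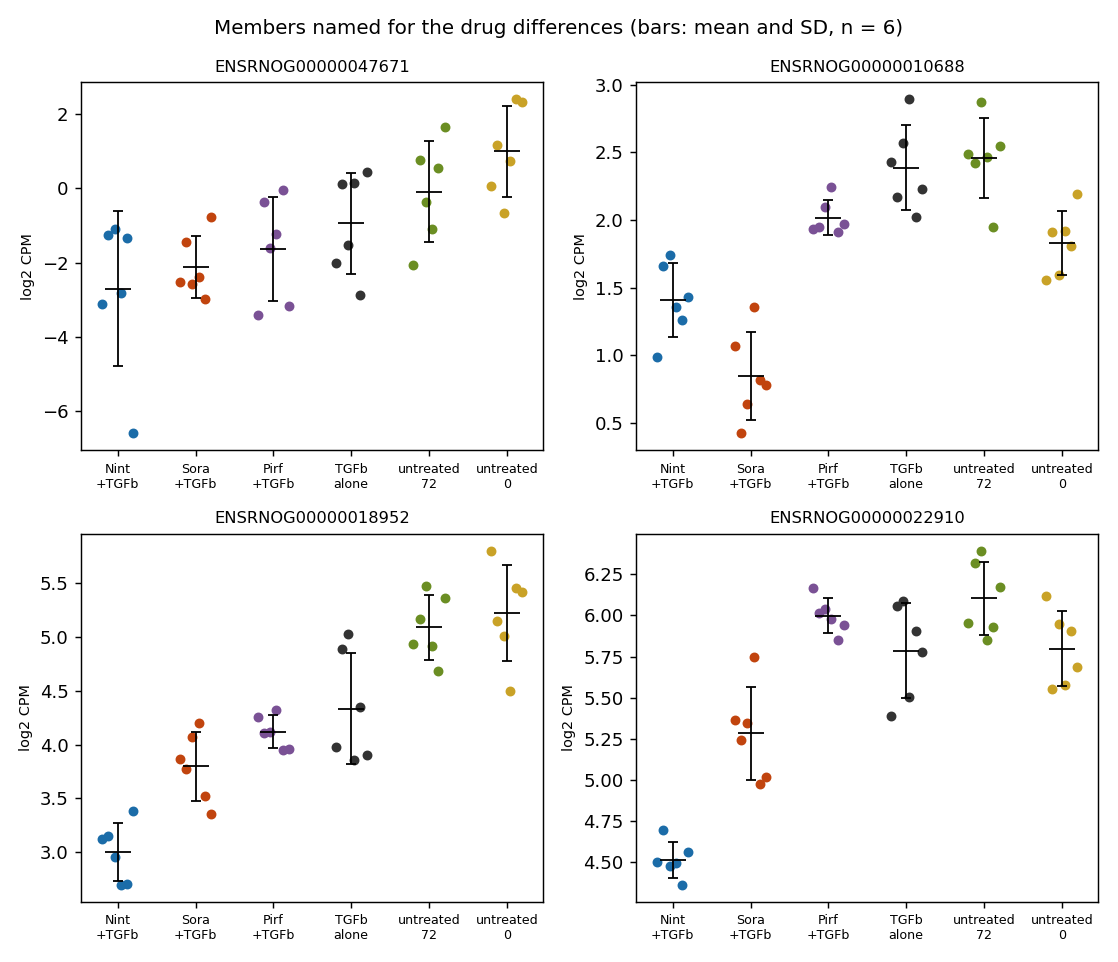
Log2 CPM of the 4 members named for the drug differences in the 6 libraries of each group (points, with mean and SD). In ENSRNOG00000010688 both drug groups lie below all TGFb-alone libraries, in ENSRNOG00000018952 and ENSRNOG00000022910 the Nint group does and the Sora group overlaps them, and in ENSRNOG00000047671 both drug groups overlap TGFb alone.

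**Figure D4:**
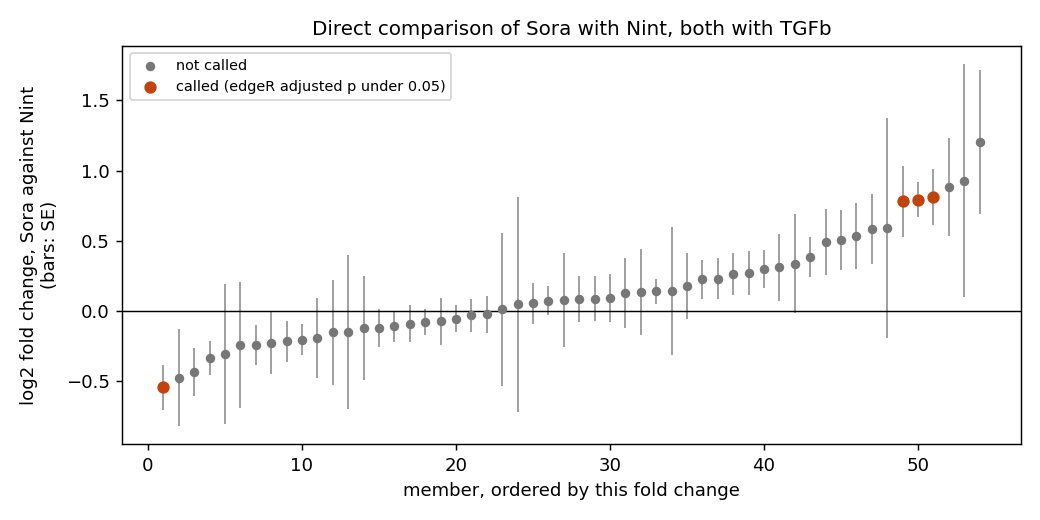
Log2 fold change of Sora against Nint for the 54 members in rising order, with bars of 1 SE from edgeR. The 4 called members are marked, 1 below and 3 above 0, and several larger values at the right are uncalled and have long bars.

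The change of the members in culture alone was read from untreated slices at 72 against time 0, a contrast on which the rule sets no limit of its own but which it partly used. The level limit takes the highest of all 6 group means, so 9 members entered only through untreated slices. Of these, 6 reached it only at time 0 and 1 only at 72, and those were chosen partly on this contrast. The untreated libraries at 72 also enter the TGFb difference. Of the 54 members, 18 were higher at 72 and 19 lower in edgeR's quasi-likelihood test, and 17 were not called. That is 68.5% of the members, against 73.2% of all genes tested (38% higher and 35.3% lower), a share near that of this wider set. A change of at least 2-fold was called in 27 members (50%), 13 higher and 14 lower, against 27.5% of all genes, 14.5% higher and 12.9% lower. Among the 45 members that also reached the level limit in a group with TGFb, 32 were called (71.1%), against 77.2% of the 12649 genes tested that did so, and 22 were called and at least 2-fold (48.9%), against 24.6%. Those 12649 genes came from the log2 CPM table, as the members did. The restriction to a group with TGFb was chosen after seeing the data, and it also drops members that were high only at time 0. The median absolute log2 fold change was 1.05 over all 54 members and 0.59 over all genes, and the median SE was 0.19 and 0.12. The members thus changed in both directions in culture.

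ENSRNOG00000015850 had the highest fold change of the called members, but it reached the level limit only in untreated slices at 72, so its difference is a description with no test. Its lowest, median and highest values were 1.30, 1.70 and 2.10 log2 CPM at 72, against -6.60, -3.49 and -0.71 at time 0 (log2 fold change 4.50, SE 0.43). The groups did not overlap, and the time-0 values rest on 15 reads over 6 libraries. With the drugs it had -0.47, 0.08 and 0.41 with Nint and -1.04, -0.41 and 0.22 with Sora, against 0.42, 0.84 and 1.62 with TGFb alone. Every Nint and Sora library was thus below the lowest with TGFb alone, the Nint group by a narrow gap, and above the time-0 median.

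ENSRNOG00000042496 had the next highest fold change. It had 5.93, 6.04 and 6.21 log2 CPM at 72, against 1.73, 2.43 and 3.35 at time 0 (log2 fold change 3.50, SE 0.19, edgeR adjusted p = 1.9e-17). With Nint it had 4.55, 5.03 and 5.24 and with Sora 4.65, 5.09 and 5.54, against 5.35, 5.62 and 5.94 with TGFb alone. With Pirf it had 6.12, 6.30 and 6.47, above every TGFb-alone library. All of its counts were not whole, so reads shared with similar genes make its level uncertain.

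ENSRNOG00000010094 and ENSRNOG00000017676 had the lowest fold changes of the called members. ENSRNOG00000017676 had 4.52, 4.57 and 4.75 log2 CPM at 72, against 8.60, 8.78 and 9.20 at time 0 (log2 fold change -4.26, SE 0.15, edgeR adjusted p = 3.74e-22). With Nint it had 3.60, 3.81 and 3.92 and with Sora 3.58, 3.98 and 4.56, against 4.47, 5.12 and 5.35 with TGFb alone. Nint libraries lay below all TGFb-alone and all untreated libraries at 72, and Sora libraries overlapped both. The mean with TGFb alone lay 0.46 above that of untreated slices at 72. Differences from untreated slices at 72 were -0.80 with Nint and -0.55 with Sora, and were largely set by the rule.

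ENSRNOG00000010094 had -6.60, -3.44 and -2.75 log2 CPM at 72, against 0.36, 1.72 and 3.05 at time 0 (log2 fold change -5.56, SE 0.57). At 72 it rested on 10 reads over the untreated libraries, 16 with TGFb alone, 5 with Nint and 12 with Sora, where -6.60 is the value of a library with 0 reads. It met the drug limits on these few reads and the level limit only through time 0, so its fold change is a description with no test, and its groups at 72 overlapped.

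**Figure D5:**
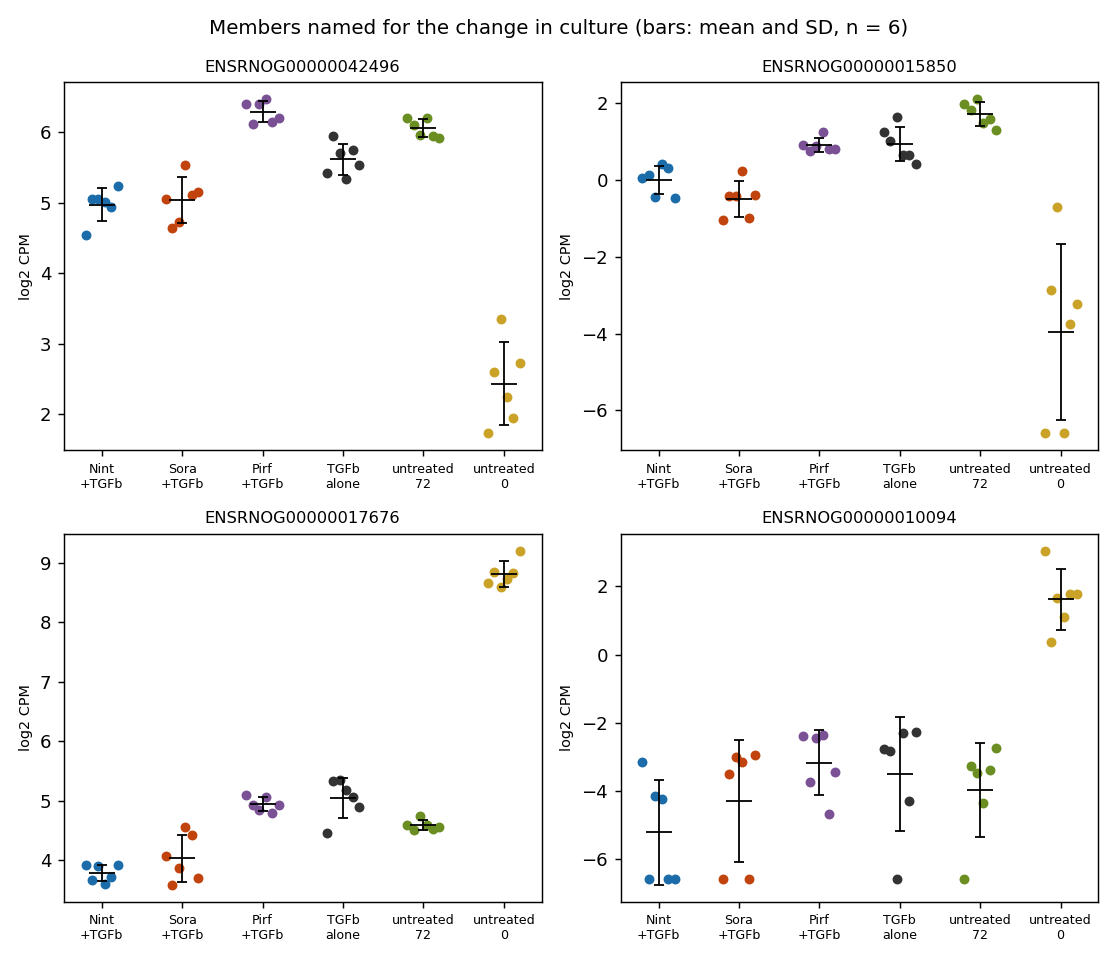
Log2 CPM of the 4 members named for the change in culture in the 6 libraries of each group (points, with mean and SD). The upper panels show the 2 members with the highest and the lower panels those with the lowest fold changes. At time 0 the lower 2 and ENSRNOG00000042496 stand apart from all libraries at 72, while ENSRNOG00000015850 at time 0 overlaps Sora.

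Levels with the drugs can also be set beside time 0. The split into called members and the rule's limits largely set these counts, so they are a description with no test. In the 19 members called lower at 72, the Nint mean and the Sora mean were below the time-0 mean in all 19. In the 18 called higher, the Nint mean was still above the time-0 mean in 14 and the Sora mean in 15. The members called higher had median differences from TGFb alone of -0.80 with Nint and -0.61 with Sora, those called lower -0.78 and -0.64, and those not called -0.72 and -0.84. Median levels in the members called higher were 3.72 with Nint, 3.91 with Sora, 4.47 with TGFb alone, 4.51 in untreated slices at 72 and 3.17 at time 0. In those called lower they were 2.92 with Nint, 2.96 with Sora, 3.53 with TGFb alone, 3.37 in untreated slices at 72 and 4.47 at time 0.

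RSEM shares reads between similar genes, and such counts are seldom whole. In 10 members (18.5%) at least 50% of the counted reads were in values that were not whole, against 11% of all genes at the level limit. Of these 10, 0 showed both separations from TGFb alone, 1 was called with both drugs, and their highest level was 6.41 log2 CPM. Among the other 44 members, 13 showed both separations and 33 were called with both drugs. The shares over all genes are the 0.498% and 0.889% given above, and these contrasts chose the members.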

How the data were processed

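RNA was sequenced from 36 rat lung slice libraries, 6 in each of 6 groups taken from the sample titles. Per the labels' protocols, total RNA libraries were stranded and depleted of ribosomal RNA. The tools RSEM and edgeR and the build Rnor_6.0 are named per the submitters' processing notes. The aligner, the annotation and the strand setting used are not stated in these sources. The authors deposited expected counts for 32883 genes and log2 CPM values for 14984 genes, the latter labelled expressed protein-coding. The log2 CPM values differed by at most 4.97e-14 from edgeR's log2 CPM computed with TMM scaling and a prior of 0.25 counts.

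The rule was applied to the log2 CPM table. Its members and the comparisons were chosen with earlier results of these data known. Expected counts were rounded and fitted in R 4.3.3 with edgeR 4.0.16 (filterByExpr, 15644 genes, TMM, one quasi-likelihood fit of all 36 libraries, no covariate). Benjamini-Hochberg adjusted p under 0.05 was a call, and the SE was derived as |log2 fold change| / sqrt(F). The code of the fit was run on counts simulated with the same fixed dispersion for every gene and for only the groups compared. That run does not cover the spread of these data or the fit of all libraries. Alternatives were RLE and no scaling factors, DESeq2 1.42.0, no filter, a replicate block, only the groups compared, and leaving out each library. A set of 20 gene lists could not be run without names. IDs named are the 2 lowest means of both drug differences, and the 2 highest and 2 lowest called fold changes of each tested comparison.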

Additional observations from a re-analysis of the deposited data

Results flagged for a closer look

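Among the 8 members given by ID, values of 1 library stood far from the other 5 of its group in 3 of 48 groups examined, and chance alone picks out about 1 group in 20. ENSRNOG00000047671 was at -6.60 log2 CPM in Nint replicate 6, which held 0 reads. ENSRNOG00000017676 was at 4.75 in untreated replicate 3 at 72, above the other 5. ENSRNOG00000015850 was at 1.24 in Pirf replicate 4, above the other 5.

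The effects of Sora and Nint differed by a direct test (edgeR's quasi-likelihood test) in 4 members. The log2 fold changes of Sora against Nint were 0.81 in ENSRNOG00000018952, 0.79 in ENSRNOG00000022910 and -0.54 in ENSRNOG00000010688, with adjusted p = 0.00891, 0.000131 and 0.0274. In a further member the log2 fold change was 0.78 (SE 0.25, adjusted p = 0.0435), and it was called in 9 of 19 settings.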

How the results depend on the processing

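The number of genes meeting the rule was 61 with medians in place of means, 40 without scaling factors, 56 with RLE factors and 59 with edgeR fold changes, of which 36, 33, 54 and 48 were members, and 42 to 71 with a library left out. Members called between 72 and 0 numbered 36 to 38 under other settings with all libraries and 35 to 38 with a library left out. They numbered 32 of 45 members that reached the level limit in a group with TGFb and 31 of 42 with a mean over all libraries of 1 or more, restrictions chosen after seeing the data. Members called for Sora against Nint numbered 5 in DESeq2, 2 without a filter on low counts, 5 without scaling factors (5 higher and 0 lower) and 2 to 9 with a library left out. Over all genes, Nint calls numbered 299 to 572 with a library left out (299 without TGFb-alone replicate 3 and 309 without replicate 2), and Sora calls 1423 in a fit of the groups compared and 1640 to 3232 with a library left out. Pirf calls ran from 7389 to 8230 and TGFb calls from 3558 to 4054 in the same way. Without scaling factors Sora against TGFb alone gave 2173 higher and 684 lower genes (1096 and 1310 with TMM), and Sora against Nint 2148 and 432 (1006 and 714 with TMM) with a median of 0.12. In the same way Pirf gave 5973 and 2594 (3926 and 4135 with TMM) and TGFb 1363 and 2543 (2187 and 1943 with TMM). In a fit of only the groups compared, also with TMM, Nint gave 298 higher and 330 lower genes (138 and 345 in the fit of all 36 libraries). The call of ENSRNOG00000010688 for Sora against Nint was lost without scaling factors, without a filter and in a fit of the groups compared, and without Nint replicate 2 or 3 or Sora replicate 2 or 3 (adjusted p 0.0512 to 0.0767). The cause was not tested. With the replicate number as a block, 38 members were called between 72 and 0 and 5 for Sora against Nint, and 487, 2602, 8121 and 4243 genes for Nint, Sora, Pirf and TGFb. Correlations of same-numbered libraries ran from -0.31 to 0.56, and at most 2 of 6 libraries in a comparison matched best with their own number. The labels do not say what the numbers share, so these correlations cannot decide whether some samples are paired. Low counts limit the 9 members with a TGFb-alone mean under 1.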
